A study of Mus musculus with 6 samples.

Results

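The genes described here are those that the annotation of the authors' deposited tables places in 1 or both of the KEGG pathways for the cell cycle and for DNA replication. After Gadd45b, Prkdc and Myc were left out, 151 of the 22298 listed genes remained, 121 in the cell cycle pathway and 37 in the DNA replication pathway, with 7 in both. They were measured by RNA sequencing of thymocytes labelled double-negative, immature T cells of the thymus without CD4 and CD8 on their surface, sorted from untreated C57BL/6 mice. Mice of both groups carried Toxf/f, an allele of Tox in which the gene is flanked by recombination sites, and Toxf/fPdcd1Cre mice also carried Cre, a recombinase that the genotype's name ties to Pdcd1 (the gene of the receptor PD-1). Tox codes for a nuclear DNA-binding protein. Mice were 3 weeks old for replicates 1 and 2 of each group and 4 weeks old for replicate 3. The comparison asks how these pathways differed in level between Toxf/fPdcd1Cre and Toxf/f thymocytes.

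The deposited values of Toxf/f replicates 1 and 2 were identical and were counted as 1 library, which left 2 Toxf/f libraries against 3 Toxf/fPdcd1Cre libraries. The labels name no single mice, but the libraries of each genotype differ in age or in Ddx3y, a gene of the Y chromosome, which had 1 count in Toxf/fPdcd1Cre replicate 1 and 843 to 1354 counts in each other library. No pair of libraries within a genotype matched in both. The p-values rest on the spread among them. Total estimated counts ranged from 14245492 to 16199195 per library, and the 151 genes took 1.69% to 1.95% of them. Tox had a mean of 113 ± 11.5 CPM (SD, n = 2) with Toxf/f alone and of 16.5 ± 2.69 CPM (SD, n = 3) with Cre, where CPM are counts per 1e6 counts of the library after scaling. Pdcd1 itself had 19 counts in the Toxf/f library of replicates 1 and 2 and 0 in every other library. The titles name the double-negative population and the protocol its stage DN2, while by mean level Rag1 was gene 3, Cd8a gene 26 and Cd4 gene 105 of all listed, which goes against libraries of double-negative cells alone. In each series of 5 values given in the text, the order is the Toxf/f library of replicates 1 and 2, Toxf/f replicate 3, and Toxf/fPdcd1Cre replicates 1, 2 and 3.

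Cells divide by passing through a fixed order of phases, driven by cyclin-dependent kinases (CDKs) that are switched on by cyclins and held back by CDK inhibitors. D cyclins with Cdk4 or Cdk6 act on the retinoblastoma protein and release E2F factors, which turn on genes for DNA synthesis. MCM helicases then open the DNA at origins, polymerases copy it, and mitotic kinases, the spindle checkpoint and the anaphase-promoting complex separate the copies. In the thymus, precursors divide at the double-negative stages and again after the pre-T cell receptor signals, and most double-positive cells are at rest.

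The D cyclins Ccnd1 and Ccnd2 were lower in Toxf/fPdcd1Cre libraries, and no gene of the pathways was higher by the same test. Of the 151 genes, 147 had enough counts to be tested. With edgeR (quasi-likelihood test, p-values adjusted by Benjamini and Hochberg's method over all 14121 genes tested), 2 passed an adjusted p of 0.05, where 1.64% of all genes tested did. Both were lower, or 1.36% of the 147, near the 1.51% of all genes that were lower. As for higher genes, 0 of the 147 were called, where 0.135% of all genes were. At an unadjusted p under 0.05, 18 of the 147 (12.2%) were higher against 3.08% of all genes, and 5 (3.4%) were lower against 7.26%. DESeq2 called 1 of the genes lower (Ccnd1), where it called 2.06% of all genes lower. It called 2 higher (Espl1 and Mad2l1), where it called 0.29% of all genes higher. Limma-voom called the same 2 D cyclins lower and none higher, where it called 280 of all 14121 genes lower and 17 higher. Limma on log2(FPKM + 1) called 0 in either direction, where it called 107 of all 11749 genes it tested lower and 6 higher. In bulk RNA, fewer cells of a type and less RNA per cell cannot be told apart.

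Most of the other genes had small differences with a positive sign. The fitted log2 fold change, Toxf/fPdcd1Cre minus Toxf/f, lay between -1.29 and 0.57. It was above 0 for 121 of the 147 (82.3%), against 54.8% of all genes tested, with a median of 0.15 against 0.03. With DESeq2's size factors 118 were above 0 and with upper-quartile factors 108. The library values did not overlap between genotypes for 44 genes that were higher in all Toxf/fPdcd1Cre libraries (29.9%, against 12.6% of all genes tested) and for 10 that were lower in all of them (6.8%, against 13.5%). In the cell cycle pathway 94 of 118 tested genes were above 0, with a median of 0.12. In the DNA replication pathway 34 of 36 were above 0, with a median of 0.23, and 19 of the 36 had higher values in every Toxf/fPdcd1Cre library. Without Toxf/f replicate 3 the pathway medians were 0.06 and 0.12, and without the other Toxf/f library 0.20 and 0.37.

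**Figure D1:**
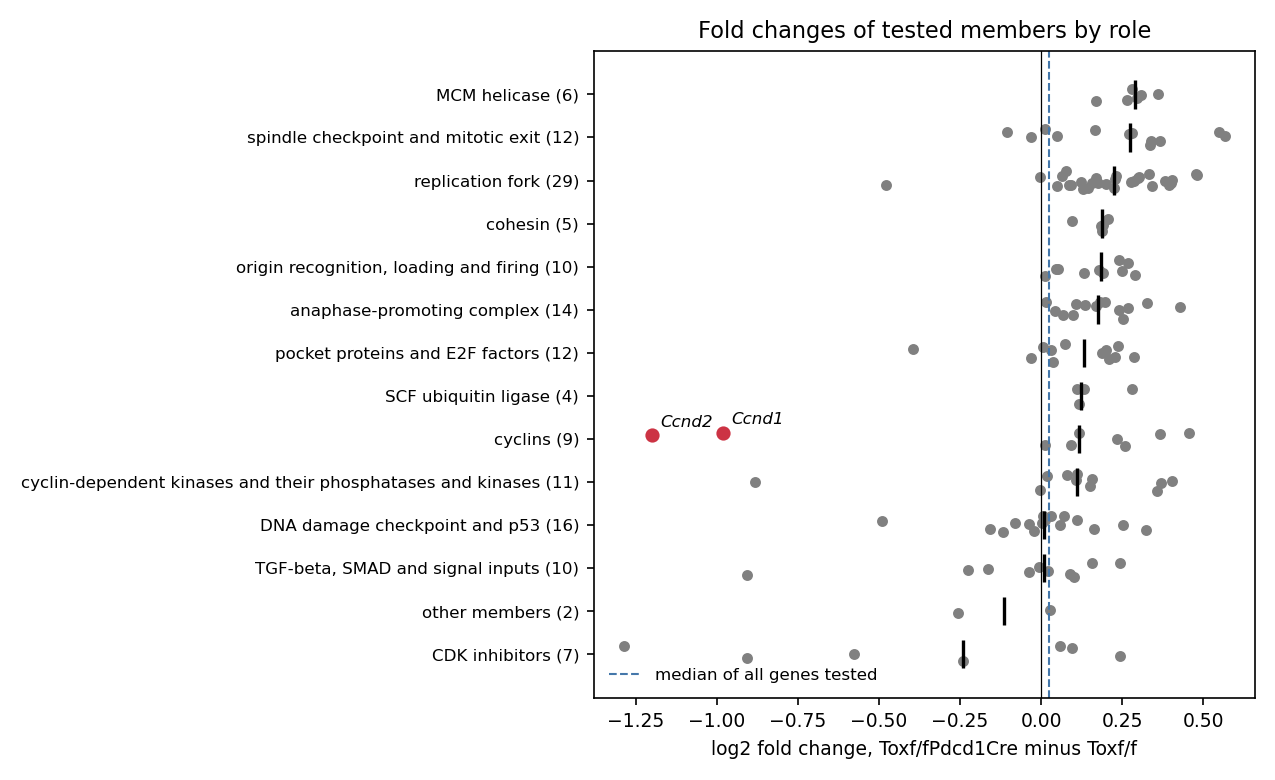
Fitted log2 fold change (x axis, Toxf/fPdcd1Cre minus Toxf/f) of the 147 tested genes by role (y axis, number tested in parentheses); each point is 1 gene, red points passed an adjusted p of 0.05, black bars are the medians of the roles and the dashed line is the median of all 14121 genes tested. Ccnd1 and Ccnd2 are the 2 red points near -1, and all 6 MCM genes lie above 0.

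Single libraries stood apart in these genes. Toxf/f replicate 3 held the lowest of the 5 values for 85 of the 147 genes (57.8%), where it held the lowest for 24.4% of all genes tested. Toxf/fPdcd1Cre replicate 3 held the highest value for 60 (40.8%), against 18.9% of all genes. Both came from mice 4 weeks old. Between these 2 libraries the median log2(CPM + 1) difference of the genes was 0.29, with 128 of 147 above 0, and that of all genes was 0.03. Among the 3-week libraries, 1 Toxf/f against 2 Toxf/fPdcd1Cre, it was 0.01, with 81 of 147 above 0, and that of all genes was -0.004. Neither value has a test, since 1 library stood on at least 1 side. Leaving out Toxf/f replicate 3 brought the fitted median of the same genes from 0.15 to 0.07 and the number above 0 to 88, and leaving out the other Toxf/f library gave 0.25 and 126.

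**Figure D2:**
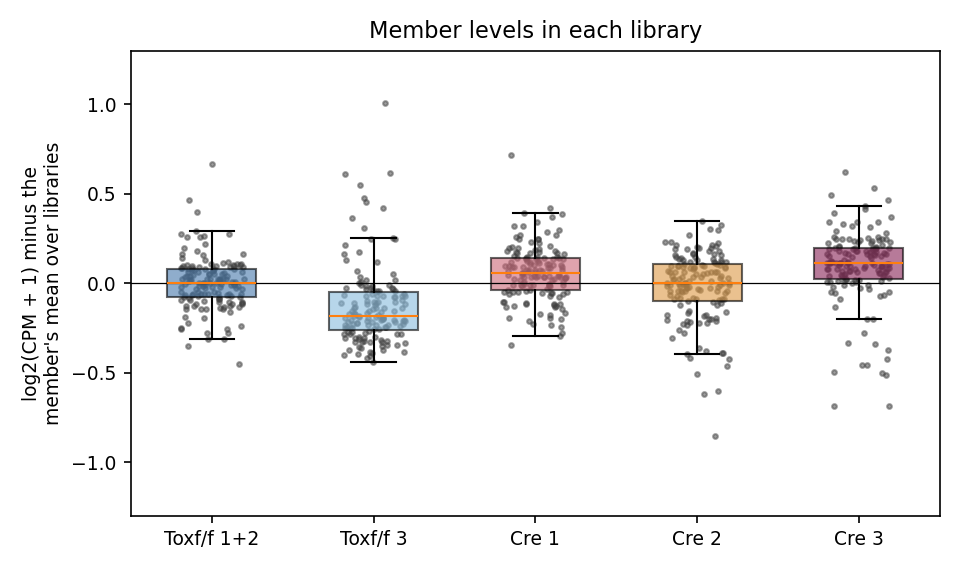
Level of each tested gene in each library, as log2(CPM + 1) minus the gene's mean over the 5 libraries (y axis); points are genes, boxes span the quartiles with the median as a line, whiskers reach the last gene within 1.5 box lengths, and Cre stands for Toxf/fPdcd1Cre. The box of Toxf/f replicate 3 is centred at -0.18 and that of Toxf/fPdcd1Cre replicate 3 at 0.11, while the other medians lie between 0.0021 and 0.05.

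Ccnd1, a D cyclin that links growth signals to Cdk4 and Cdk6, lies on chromosome 7 at 144929931 to 144939925 (GRCm38, minus strand). Its levels were 26.2, 22.4, 14.1, 10.3 and 12.5 CPM. Both Toxf/f libraries stood above all 3 Toxf/fPdcd1Cre libraries, with no overlap. The Toxf/f mean of 24.3 ± 2.67 CPM (SD, n = 2) compared with a Toxf/fPdcd1Cre mean of 12.3 ± 1.94 CPM (SD, n = 3), a log2 fold change of -0.98 ± 0.188 (SE), or 1.97-fold lower (edgeR adjusted p = 0.0243). The log2(CPM + 1) difference was -1.06 among the 3-week libraries and -0.79 between the 4-week libraries. Its annotation overlaps that of LTO1, and reads of overlapping genes may be shared. The adjusted p passed 0.05 in 9 of 16 alternative analyses, in which the log2 fold change ran from -1.13 to -0.86. Among the 9 were both fits with replicate number as a block, and whether these numbers pair the libraries is not known. With DESeq2 the adjusted p was 0.0012, the lowest of these. With edgeR it was 0.267 when the Toxf/f library of replicates 1 and 2 was left out and 0.187 when Toxf/f replicate 3 was. Leaving out Toxf/fPdcd1Cre replicate 2 gave 0.0542, and leaving out replicate 3 of that genotype gave 0.08. With age, of which both genotypes hold both values, as a covariate in edgeR it was 0.0549.

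Ccnd2, the D cyclin best known for its part in lymphocyte division, lies on chromosome 6 at 127125162 to 127152193 (minus strand). Its levels were 159, 232, 121, 63.1 and 70.9 CPM. The libraries did not overlap between genotypes, although Toxf/fPdcd1Cre replicate 1 was closer to the lower Toxf/f library than to its own group. The Toxf/f mean of 195 ± 51.5 CPM (SD, n = 2) compared with a Toxf/fPdcd1Cre mean of 84.9 ± 31.3 CPM (SD, n = 3), a log2 fold change of -1.20 ± 0.246 (SE), or 2.30-fold lower (edgeR adjusted p = 0.0331). The log2(CPM + 1) difference was -0.86 at 3 weeks and -1.69 at 4 weeks. The adjusted p passed 0.05 in 7 of 16 alternatives, with a log2 fold change from -1.59 to -0.90. Among the 7 were both edgeR fits with replicate number as a block, and whether these numbers pair the libraries is not known. They gave 1.29e-05 with the shared library as number 1 and 1.31e-06 as number 2, a setting chosen after seeing the data. Outside these fits the lowest adjusted p was 0.000617, by edgeR with no filter on low counts. With edgeR it was 0.131 when the Toxf/f library of replicates 1 and 2 was left out, 0.540 when Toxf/f replicate 3 was and 0.115 when Toxf/fPdcd1Cre replicate 3 was. With DESeq2 it was 0.158, and with age as a covariate in edgeR it was 0.0925.

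Ccnd3, the D cyclin that thymocyte expansion after pre-T cell receptor signals depends on, lies on chromosome 17 at 47505051 to 47599691 (plus strand). Its levels were 748, 654, 789, 714 and 776 CPM. The groups overlapped, and the log2 fold change was 0.12 ± 0.139 (SE; edgeR adjusted p = 0.88). Its annotation overlaps that of Bysl.

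On a scale corrected for gene length, Ccnd3 made up nearly all D cyclin RNA. Its FPKM (fragments scaled by gene length and by library size) were 457.9, 410.7, 480.0, 394.8 and 450.9. Those of Ccnd2 were 26.6, 39.9, 22.6, 10.4 and 11.7, and those of Ccnd1 were 7.09, 6.21, 3.89, 2.65 and 3.21. Of the summed FPKM of the 3 D cyclins, Ccnd1 held 1.40% ± 0.0585 (SD, n = 2) in Toxf/f and 0.702% ± 0.0602 (SD, n = 3) in Toxf/fPdcd1Cre libraries. Ccnd2 held 7.08% ± 2.35 and 3.18% ± 1.12, and Ccnd3 held 91.5% ± 2.29 and 96.1% ± 1.18, in the same order. None of these 3 shares overlapped between genotypes, and each had a two-sided exact permutation p of 0.1, the smallest that the 10 splits of 5 libraries allow. The shares are parts of 1 sum and so depend on each other. They come from the same libraries in which Ccnd1 and Ccnd2 were lower, and add no independent support. The sum itself was 474 ± 24.6 FPKM (SD, n = 2) and 460 ± 49.6 FPKM (SD, n = 3), with an exact permutation p of 0.9. Over these 4 measures the adjusted p was 0.133 for the shares and 0.9 for the sum.

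Markers of other cells differed between the same libraries. Of all genes tested, edgeR called 1.51% lower and 0.135% higher, and DESeq2 called 2.06% lower and 0.29% higher. At an unadjusted p under 0.05 by edgeR, 7.26% of all genes were lower and 3.08% higher. Of 6 markers of mature single-positive thymocytes 5 were lower by edgeR, and their summed level was 478.5 to 548.6 CPM in Toxf/f against 301.8 to 316.6 CPM in Toxf/fPdcd1Cre libraries. Of 6 dendritic cell markers 3 were lower, with sums of 477.5 to 576.1 CPM against 189.6 to 271.8 CPM. Of 6 macrophage markers 0 were called by edgeR (2 at an unadjusted p under 0.05, 1 by DESeq2 and 1 by limma-voom). Their sums were 704.5 to 792.0 CPM against 401.9 to 529.4 CPM. Lyz2 alone had 427 and 354 CPM against 105, 214 and 219 CPM. Of the 6, Adgre1 had a log2 fold change above 0 (0.29) and 5 had one below 0, among them Mertk (-0.06). Of 9 markers of early double-negative thymocytes 2 were lower, Cd44 and Il7r, the second of which is also on the mature single-positive list, and at an unadjusted p under 0.05 a total of 3 were lower and 2 higher (Notch3, 0.63, and Ptcra, 0.42, on the log2 scale). These 9 had sums of 505.0 to 730.8 CPM against 655.2 to 771.5 CPM. Of 5 plasma cell markers 2 were lower, with sums of 261.8 to 288.9 CPM against 202.0 to 211.6 CPM. Of 4 tested natural killer cell markers 2 were higher, with sums over all 5 of 62.5 to 66.3 CPM against 95.7 to 169.0 CPM. Of 7 thymic epithelial markers 1, Krt14, was lower, with sums of 935.6 to 1094 CPM against 939.6 to 1131 CPM. Of 8 double-positive thymocyte markers 0 were called by edgeR, DESeq2 or limma and 0 had an unadjusted p under 0.05. Their sums were 8976 to 9756 CPM against 8965 to 11336 CPM. Rag1 alone had 4200 and 4403 CPM against 4237, 5489 and 5411 CPM. Of 6 B lineage markers 0 were called by edgeR (3 at an unadjusted p under 0.05, 1 each by DESeq2 and limma-voom), with sums of 54.6 to 80.4 CPM against 46.6 to 54.2 CPM. Of 4 tested erythroid markers 0 were called by edgeR, DESeq2 or limma (2 at an unadjusted p under 0.05), with sums over all 5 of 734.1 to 1077 CPM against 353.3 to 768.7 CPM. None of the markers in these lists was at 0 in any library. The part of these cells in the differences of Ccnd1 and Ccnd2 was not tested.

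The cyclins of the later phases had higher means in Toxf/fPdcd1Cre libraries, and none passed the test. Of the 11 cyclin genes 9 were tested. By edgeR 2 of these, Ccnd1 and Ccnd2, were lower (22.2%, against 1.51% of all genes tested). A log2 fold change above 0 was found for 7 (77.8%, against 54.8% of all genes tested), or 6 with upper-quartile factors. Ccnb1, the cyclin that drives entry into mitosis with Cdk1, had 210, 168, 260, 233 and 237 CPM, with all Toxf/fPdcd1Cre libraries above both Toxf/f libraries. Its log2 fold change was 0.37 ± 0.143 (SE; edgeR adjusted p = 0.367). Ccnb2, the second B cyclin, had 149, 117, 151, 168 and 158 CPM, again without overlap and with a narrow gap (0.26, adjusted p = 0.589). Ccna2, which acts in S phase and early mitosis, had 316, 244, 325, 302 and 360 CPM, and the groups overlapped (0.23, adjusted p = 0.702).

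The E cyclins start DNA synthesis with Cdk2. Ccne1 had 33.7, 23.8, 29.4, 31.0 and 31.4 CPM, with the highest and the lowest value both in Toxf/f libraries (0.09, edgeR adjusted p = 0.934). Ccne2 had 29.4, 29.1, 42.6, 24.6 and 53.4 CPM, so that Toxf/fPdcd1Cre libraries held both the highest and the lowest value (0.46 ± 0.253, SE; adjusted p = 0.598). Ccnh, the partner of the CDK-activating kinase, had 36.2, 29.2, 37.8, 29.0 and 32.2 CPM (0.01, adjusted p = 0.99). Ccna1, the germ cell A cyclin, had 1 count in Toxf/f replicate 3 and 0 in the other libraries, and Ccnb3 had 0 in all 5. With 3 counts as the limit that a count of 0 allows, these zeros permit up to 0.185 to 0.211 CPM per library, for counting error only. Both were too low to be tested, as were the cohesin gene Smc1b (11, 4, 4, 1 and 1 counts) and the predicted gene Gm45928 (0 counts in all libraries).

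**Figure D3:**
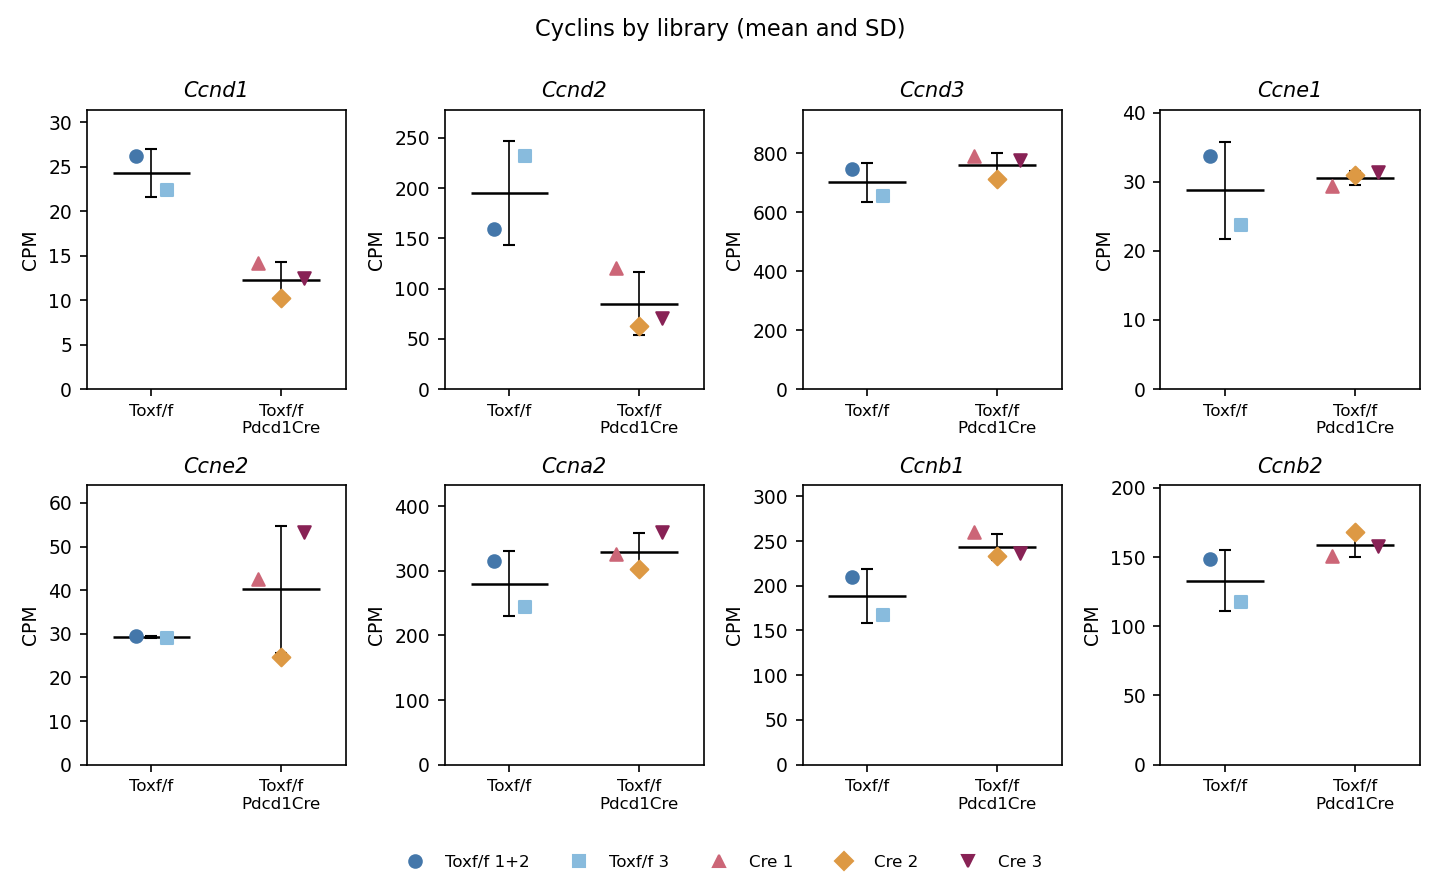
Levels of 8 cyclins (y axes, CPM, each starting at 0) by genotype; each symbol is 1 library, horizontal lines are means and error bars are SD (2 Toxf/f and 3 Toxf/fPdcd1Cre libraries), and Cre stands for Toxf/fPdcd1Cre. Ccnd1 and Ccnd2 are lower in all 3 Toxf/fPdcd1Cre libraries, while Ccnd3 overlaps between genotypes.

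Of the 7 CDK inhibitors, 1 was lower at an unadjusted p under 0.05 (14.3%, against 7.26% of all genes tested). None of the 7 was called by edgeR, DESeq2 or limma, and 3 had a log2 fold change above 0. Their median of -0.24 moved with the library left out: leaving out Toxf/f replicate 3 gave -0.05, and leaving out the other Toxf/f library gave -0.51. Leaving out Toxf/fPdcd1Cre replicates 1, 2 and 3 in turn gave -0.88, -0.05 and -0.04. Cdkn1a, the inhibitor p21 that p53 turns on, had 21.5, 23.9, 20.2, 13.2 and 12.2 CPM. All Toxf/fPdcd1Cre values were below both Toxf/f values, replicate 1 by little. Its log2 fold change was -0.58 ± 0.219 (SE; edgeR adjusted p = 0.344), and without Toxf/fPdcd1Cre replicate 1 it was -0.88 with an adjusted p of 0.0269. Cdkn1b, the inhibitor p27 that accumulates in resting lymphocytes, had 221, 190, 186, 214 and 240 CPM, and the groups overlapped (0.06 ± 0.148, SE; adjusted p = 0.956). Cdkn1c, the related p57, had 10.1, 15.2, 18.2, 7.72 and 6.26 CPM, with the highest and the lowest value both in Toxf/fPdcd1Cre libraries (-0.24, adjusted p = 0.922).

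The INK4 inhibitors block Cdk4 and Cdk6. Cdkn2a, which also codes for the p53 activator ARF, was near the lower limit with 13, 28, 11, 8 and 4 counts. Its Toxf/fPdcd1Cre values were all below its Toxf/f values (-1.29 ± 0.621, SE; edgeR adjusted p = 0.514). Cdkn2b had 2.05, 3.25, 2.25, 0.957 and 1.03 CPM, which overlapped (-0.91, adjusted p = 0.581). Cdkn2c, or p18, had 60.0, 50, 60.3, 70.4 and 64.5 CPM, higher in all Toxf/fPdcd1Cre libraries and in replicate 1 by a small margin (0.24, adjusted p = 0.641). Cdkn2d, or p19, had 119, 98.3, 101, 138 and 108 CPM, which overlapped (0.10, adjusted p = 0.926).

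**Figure D4:**
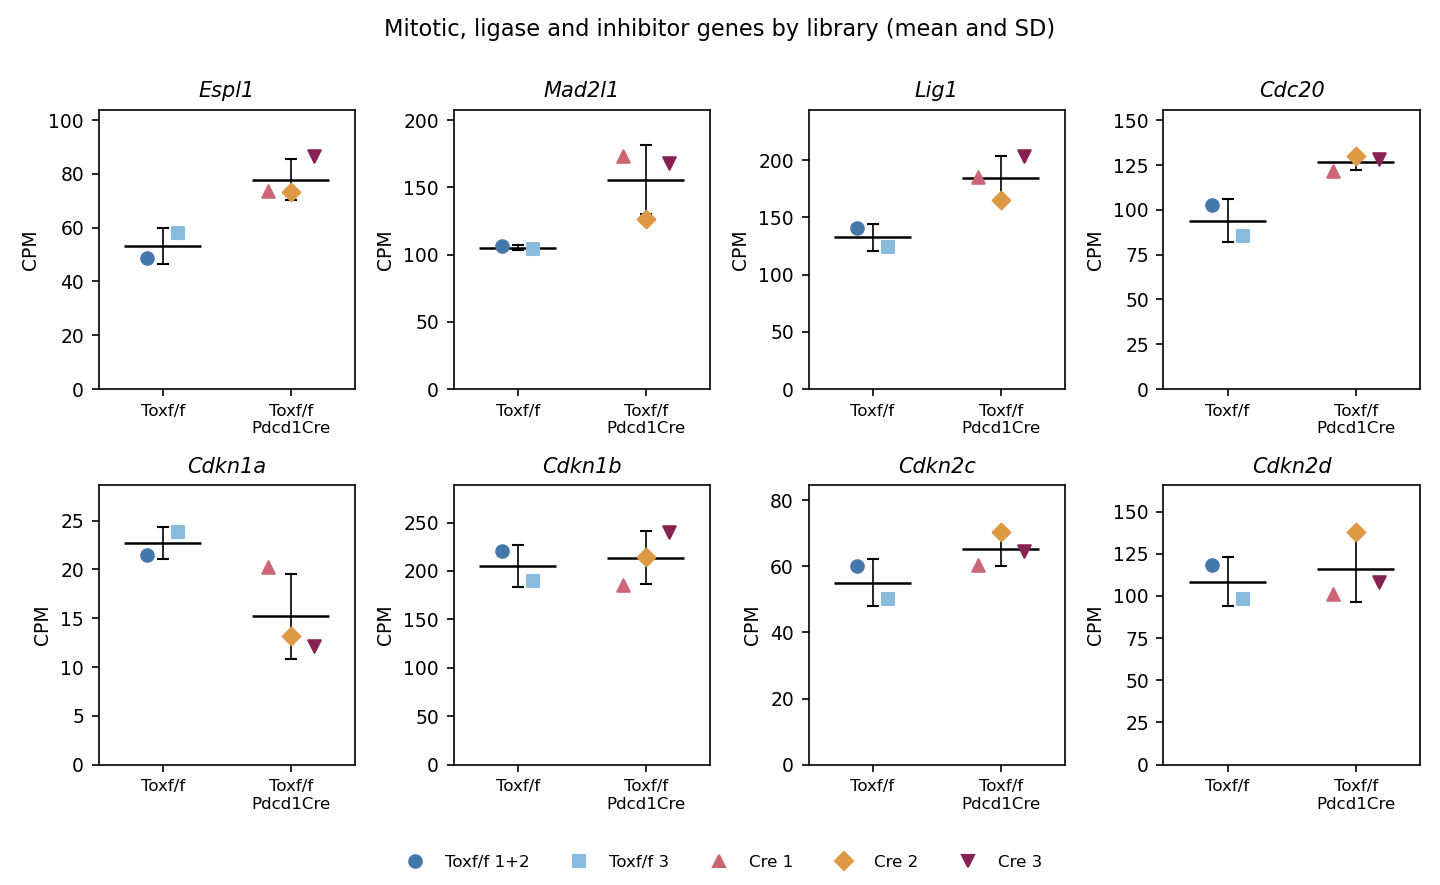
Levels of 4 genes of mitosis and DNA ligation (upper row) and of 4 CDK inhibitors (lower row) by genotype (y axes, CPM, each starting at 0); each symbol is 1 library, lines are means and error bars are SD (2 Toxf/f and 3 Toxf/fPdcd1Cre libraries), and Cre stands for Toxf/fPdcd1Cre. Espl1, Mad2l1, Lig1 and Cdc20 do not overlap between genotypes, Cdkn1a is lower and Cdkn2c higher in all Toxf/fPdcd1Cre libraries, and no gene shown passed an adjusted p of 0.05.

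Toxf/fPdcd1Cre libraries had higher values than both Toxf/f libraries for 5 of the 6 MCM genes (83.3%, against 12.6% of all genes tested). Their products form the ring-shaped helicase that unwinds DNA at the fork. None of the 6 was called by edgeR, DESeq2 or limma. At an unadjusted p under 0.05, 1 (Mcm5) was higher (16.7%, against 3.08% of all genes tested). All 6 had a log2 fold change above 0, also with DESeq2's size factors, with upper-quartile factors and after each library was left out. Their median was 0.29, against 0.03 for all genes tested. Leaving out Toxf/f replicate 3 made it 0.16, and leaving out the other Toxf/f library made it 0.41. The 6 genes summed to 1596, 1357, 1704, 1705 and 1978 CPM.

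Mcm5 had 214, 183, 233, 244 and 288 CPM (0.36 ± 0.146, SE; edgeR adjusted p = 0.4). Mcm6, with the highest level of the 6, had 434, 371, 487, 469 and 513 CPM (0.28, adjusted p = 0.523). Mcm2 had 228, 205, 248, 245 and 311 CPM (0.31, adjusted p = 0.514). In these genes, as in the other 3, Toxf/f replicate 3 was the lowest library and Toxf/fPdcd1Cre replicate 3 the highest. Mcm3 had 236, 193, 245, 244 and 284 CPM (0.26, adjusted p = 0.593). Mcm7, which overlaps Cops6 and Ap4m1, had 276, 222, 277, 307 and 333 CPM (0.30, adjusted p = 0.537). In Toxf/fPdcd1Cre replicate 1 it was above the higher Toxf/f value by a small margin only. Mcm4 had 208, 182, 213, 196 and 250 CPM and was the 1 gene of the 6 whose groups overlapped (0.17, adjusted p = 0.811).

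**Figure D5:**
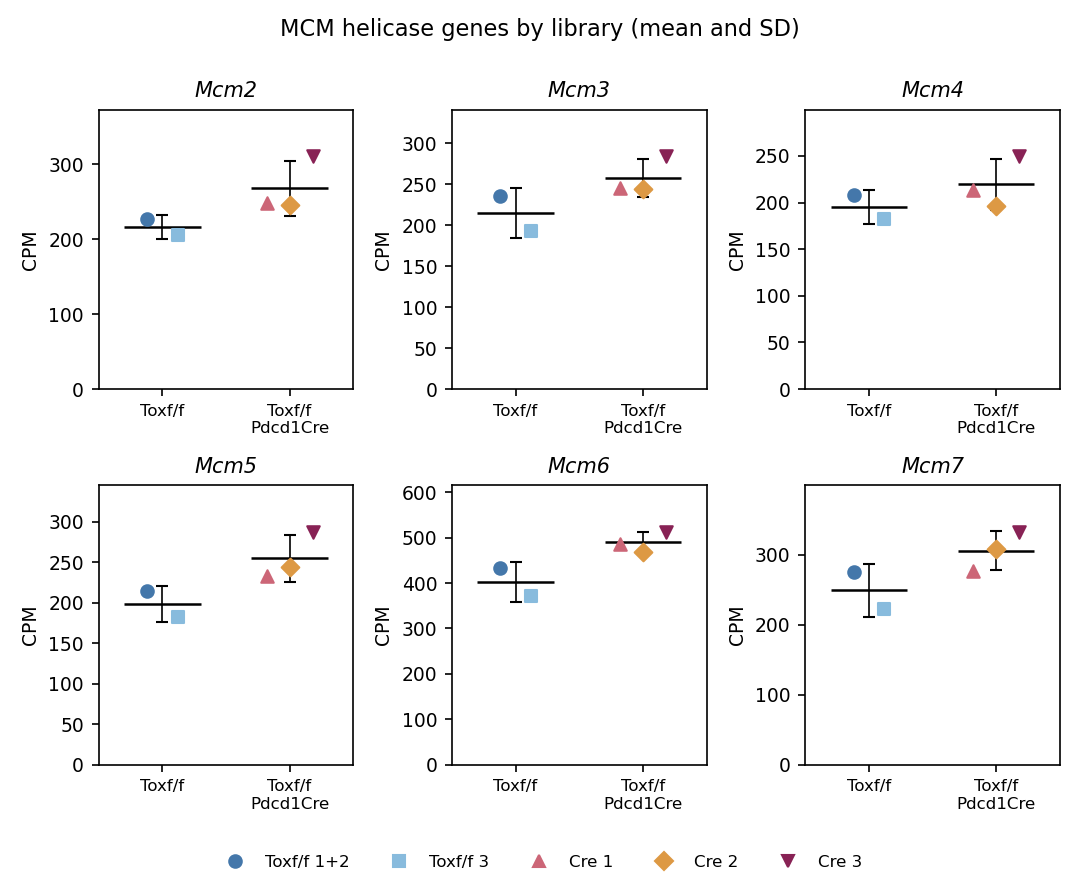
Levels of the 6 MCM genes (y axes, CPM, each starting at 0) by genotype; each symbol is 1 library, lines are means and error bars are SD (2 Toxf/f and 3 Toxf/fPdcd1Cre libraries), and Cre stands for Toxf/fPdcd1Cre. Toxf/f replicate 3 is the lowest and Toxf/fPdcd1Cre replicate 3 the highest library in all 6 panels.

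E2F factors bind a TTT-and-CGC site that many replication genes carry before their start. RefSeq promoters (GRCm38.p6, 250 bases before to 50 after the start) were found for 121 of the 151 genes, 152 promoters in all, and were searched on both strands for TTTNNCGC. The motif was in 41 of the 152 (27.0%) and in 1698 of all 32851 RefSeq promoters (5.17%). Among the promoters of the MCM genes, 5 of which were matched, it was in 4 of 6 (66.7%), and CCAAT, the NF-Y motif, was in 6 of 6, against 37.4% of all promoters. A match is a description of the sequence and does not show binding. The median log2 fold change was 0.16 for genes with TTTNNCGC and 0.16 for those without. The stretches around the motif in 2 MCM genes are shown because helicase genes are textbook E2F targets. Capitals mark the motif, which Mcm6 carries on the printed strand and Mcm5 on the other one.
Mcm5, chr8:75109338-75109389, plus strand, 149 bases before the start: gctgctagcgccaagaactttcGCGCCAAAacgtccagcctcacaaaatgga
Mcm6, chr1:128359723-128359774, minus strand, 47 bases before the start: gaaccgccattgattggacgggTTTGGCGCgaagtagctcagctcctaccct

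The 10 genes that mark, load and fire origins all had a log2 fold change above 0 (median 0.18), or 9 with upper-quartile factors. Without Toxf/f replicate 3 it was 5 (median 0.01), and without the other Toxf/f library 10 (median 0.30). None of the 10 was called by edgeR, DESeq2 or limma, and 0 had an unadjusted p under 0.05. Cdc45, the helicase partner loaded when an origin fires, had 71.0, 53.8, 75.5, 74.6 and 78.5 CPM, with Toxf/f replicate 3 well below the rest (0.29, edgeR adjusted p = 0.548). The origin recognition subunits Orc2, Orc6 and Orc3 had log2 fold changes of 0.27, 0.25 and 0.19, with adjusted p from 0.572 to 0.797.

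Of the 29 tested genes of the replication fork, 27 had a log2 fold change above 0 (median 0.22). Without Toxf/f replicate 3 it was 19 (median 0.12), and without the other Toxf/f library 28 (median 0.35). At an unadjusted p under 0.05, 7 were higher (24.1%, against 3.08% of all genes tested) and 1 was lower (3.45%, against 7.26%), and 0 were called by edgeR, DESeq2 or limma. Lig1, the ligase that joins Okazaki fragments (chromosome 7, 13277283 to 13311433), had 141, 124, 185, 165 and 203 CPM, all Toxf/fPdcd1Cre libraries being higher. Its log2 fold change was 0.48 ± 0.140 (SE; edgeR adjusted p = 0.159). Pole, the leading-strand polymerase, had 56.0, 58.1, 75.4, 67.2 and 82.2 CPM, without overlap (0.39, adjusted p = 0.283). Pold1, the catalytic subunit of the lagging-strand polymerase, had 68.6, 60.3, 91.8, 73.7 and 90.2 CPM, also without overlap (0.40, adjusted p = 0.309).

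Pola1, the polymerase that extends the primers, had 77.5, 70.6, 115, 67.0 and 128 CPM, and Toxf/fPdcd1Cre replicate 2 was the lowest of the 5 libraries (0.48 ± 0.225, SE; edgeR adjusted p = 0.496). Without that library the log2 fold change was 0.71 with an adjusted p of 0.0253. Rnaseh2b, a subunit of the ribonuclease that removes ribonucleotides from DNA, had 56.9, 48.9, 73.4, 65.1 and 70.9 CPM, without overlap (0.40, adjusted p = 0.269). Pcna, the sliding clamp, had the highest length-corrected level of the fork genes and 645, 494, 647, 587 and 684 CPM, which overlapped (0.17, adjusted p = 0.829). The single-strand binding subunit Rpa1 had a log2 fold change of 0.18 (adjusted p = 0.776). Pold4, the small accessory subunit of the same polymerase as Pold1, had the lowest log2 fold change of the fork genes, with levels of 17.9, 18.6, 16.4, 12.8 and 10.2 CPM. All its Toxf/fPdcd1Cre values were below its Toxf/f values (-0.48 ± 0.213, SE; adjusted p = 0.464). Its annotation overlaps that of Gm45928.

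Among the mitotic genes the 2 largest positive differences of the whole gene set were found. Of 12 tested genes of the spindle checkpoint and mitotic exit, 10 had a log2 fold change above 0 (median 0.28), or 9 with upper-quartile factors. None was called by edgeR or limma, and 2 were called higher by DESeq2, which called 0.29% of all genes higher. At an unadjusted p under 0.05, 3 were higher (25%, against 3.08% of all genes tested). Mad2l1, the checkpoint protein that holds back the anaphase-promoting complex (chromosome 6, 66535390 to 66547220), had 106, 104, 173, 126 and 168 CPM. The 2 Toxf/f libraries were nearly equal and below all Toxf/fPdcd1Cre libraries. Its log2 fold change was 0.57 ± 0.155 (SE; edgeR adjusted p = 0.126), with an adjusted p of 0.0416 by DESeq2 and of 0.0241 by edgeR without Toxf/fPdcd1Cre replicate 2. Espl1, or separase, which cuts cohesin at anaphase (chromosome 15, 102296266 to 102324357), had 48.5, 57.9, 73.8, 73.3 and 86.5 CPM, without overlap. Its log2 fold change was 0.55 ± 0.146 (SE; adjusted p = 0.111), with an adjusted p of 0.0496 by DESeq2. The log2(CPM + 1) difference of Espl1 was 0.59 at 3 weeks and 0.57 at 4 weeks, and that of Mad2l1 was 0.47 and 0.69. Bub1b, the checkpoint kinase-like protein BubR1, had 232, 192, 253, 282 and 283 CPM, without overlap (0.37, adjusted p = 0.354). Bub3, its partner, had a log2 fold change of 0.05 (adjusted p = 0.967).

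All 14 tested genes of the anaphase-promoting complex had a log2 fold change above 0 (median 0.18), or 13 with upper-quartile factors. Without Toxf/f replicate 3 it was 11 (median 0.10), and without the other Toxf/f library 14 (median 0.27). Cdc20, the activator that starts anaphase, had 103, 85.5, 121, 130 and 129 CPM, higher in every Toxf/fPdcd1Cre library (0.43 ± 0.133, SE; edgeR adjusted p = 0.187), and overlaps Elovl1. Fzr1, the activator of late mitosis and G1, had a log2 fold change of 0.33 (adjusted p = 0.419). The subunits Anapc5 and Cdc26 had 0.18 and 0.14 (adjusted p = 0.775 and 0.834). None of the 14 was called by edgeR, DESeq2 or limma. At an unadjusted p under 0.05, 2 were higher (14.3%, against 3.08% of all genes tested).

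Of 11 tested CDKs and their kinases and phosphatases, 3 were higher at an unadjusted p under 0.05 (27.3%, against 3.08% of all genes tested). Of these 11 genes 9 had a log2 fold change above 0 and 0 were called by edgeR, DESeq2 or limma. The median was 0.11, with 0.02 and 7 above 0 without Toxf/f replicate 3, and with 0.21 and 10 above 0 without the other Toxf/f library. Cdk1, the kinase of mitosis, had 205, 161, 252, 219 and 238 CPM, without overlap (0.37 ± 0.147, SE; edgeR adjusted p = 0.379). Its activating phosphatases Cdc25b and Cdc25c had 0.36 and 0.40 (adjusted p = 0.373 and 0.464). Cdk4, the partner of the D cyclins, had 251, 203, 266, 235 and 258 CPM, which overlapped (0.16, adjusted p = 0.826).

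Many genes of late G2 and mitosis carry the cell cycle homology region, TTTGAA, close to their start. On either strand the motif was in 28 of the 152 promoters (18.4%) and in 17.9% of all RefSeq promoters, and among 18 promoters of the spindle checkpoint and mitotic exit genes it was in 8 (44.4%). Among 15 promoters of the anaphase-promoting complex genes it was in 2 (13.3%), and among 8 of the CDK group in 1 (12.5%). The median log2 fold change was 0.26 for the 25 genes with the motif and 0.16 for those without. TTTGAA, TTTNNCGC and CCAAT were counted apart, and 1 promoter may hold several. Among mitotic genes without overlap, the search found no motif wholly before the start of Mad2l1 or Bub1b. Ccnb2 carried it 167 bases before the start and is not shown. The stretches of 3 mitotic genes named above, whose values did not overlap between genotypes, are shown with the motif in capitals. Distances are from the RefSeq start, which can differ from the GENCODE start used for the gene coordinates. For Espl1 the GENCODE start given above lies within the printed stretch, at the first base of the motif.
Cdk1, chr10:69352913-69352949, minus strand, 15 bases before the start: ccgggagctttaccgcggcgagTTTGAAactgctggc
Cdc20, chr4:118437344-118437383, minus strand, 18 bases before the start: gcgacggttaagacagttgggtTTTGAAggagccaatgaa
Espl1, chr15:102296244-102296292, plus strand, 27 bases before the start: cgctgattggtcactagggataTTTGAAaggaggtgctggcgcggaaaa

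Of 12 tested pocket protein and E2F genes 10 had a log2 fold change above 0 (median 0.13), or 9 with DESeq2's size factors and 8 with upper-quartile factors. Without Toxf/f replicate 3 it was 6 (median 0.04), and without Toxf/fPdcd1Cre replicate 1 the median was 0.07. E2f2, an activating E2F, had 318, 299, 354, 402 and 372 CPM, without overlap (0.29, edgeR adjusted p = 0.496). E2f5, a repressing E2F, had 12.2, 9.16, 8.20, 7.60 and 8.60 CPM, lower in every Toxf/fPdcd1Cre library (-0.39, adjusted p = 0.62). The corepressor Hdac1 had 0.24 (adjusted p = 0.62) and Tfdp1, the partner that E2F factors bind DNA with, 0.07 (adjusted p = 0.934). All 5 tested cohesin genes, whose products hold sister chromatids together, had a positive log2 fold change (median 0.19), or 3 without Toxf/fPdcd1Cre replicate 3 (median 0.01), and the median was 0.31 without Toxf/fPdcd1Cre replicate 2. Among them was Rad21 with 676, 571, 684, 680 and 771 CPM (0.19, adjusted p = 0.767). The cohesin genes Smc1a and Stag1 both had 0.19, with values that overlapped. The 4 SCF ubiquitin ligase genes, which mark cell cycle proteins for breakdown, had a median of 0.12, which was 0.03 without Toxf/f replicate 3 and 0.30 without the other Toxf/f library, with 0.28 for Skp1a and 0.13 for Rbx1. In the pocket protein, cohesin and SCF groups 0 genes were called by edgeR, DESeq2 or limma and 0 had an unadjusted p under 0.05.

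Of 16 tested genes of the DNA damage checkpoint and p53 pathway 10 had a log2 fold change above 0 (median 0.01), or 8 with DESeq2's size factors and 6 with upper-quartile factors. Leaving out 1 library moved this median between -0.06 (Toxf/f replicate 3) and 0.09 (the other Toxf/f library). Abl1, a kinase of the damage response, had 143, 178, 189, 210 and 205 CPM, without overlap (0.32, edgeR adjusted p = 0.45). Chek1, the kinase of the replication checkpoint, had 0.25 (adjusted p = 0.752), and the abundant 14-3-3 genes Ywhaz and Ywhae had -0.08 and 0.06. Gadd45g, a stress gene, had 3.39, 3.49, 2.94, 2.74 and 1.65 CPM, lower in every Toxf/fPdcd1Cre library (-0.49, adjusted p = 0.769). Of 10 genes of TGF-beta, SMAD and other signal input 5 were above 0 (median 0.01), and leaving out 1 library moved the median between -0.06 (Toxf/fPdcd1Cre replicate 2) and 0.07 (replicate 1 of that genotype). The ligand Tgfb2 had 3.52, 4.40, 3.01, 1.40 and 1.93 CPM, without overlap (-0.91 ± 0.401, SE; adjusted p = 0.461). Tgfb1, the main ligand of lymphocytes, had 114, 126, 97.3, 112 and 113 CPM, lower by a small margin in every Toxf/fPdcd1Cre library (-0.16, adjusted p = 0.782). The signal transducers Smad2 and Smad3 had 0.02 and 0.24. In these 2 groups 0 genes were called by edgeR, DESeq2 or limma. At an unadjusted p under 0.05, 1 gene of the damage checkpoint group was higher (6.25%, against 3.08% of all genes tested). In the signal input group 1 was lower (10%, against 7.26%). E030030I06Rik and Gm49384, which the annotation adds to the pathways, had -0.26 and 0.03, and Gm49384 overlaps Pole2.

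Genes of proliferation and rest outside the 2 pathways were read from lists of their own. All 30 tested proliferation genes had a log2 fold change above 0 (median 0.29), also with DESeq2's size factors and upper-quartile factors, and 24 did without Toxf/f replicate 3 (median 0.17). Without the other Toxf/f library the median was 0.43. None was called by edgeR, DESeq2 or limma, and 9 were higher at an unadjusted p under 0.05 (30%, against 3.08% of all genes tested). Rrm1, the large subunit of ribonucleotide reductase, had 466, 398, 595, 533 and 589 CPM, without overlap (0.41, edgeR adjusted p = 0.274), and Uhrf1, which maintains DNA methylation at the fork, had 302, 291, 378, 358 and 440 CPM, without overlap (0.40, adjusted p = 0.279). Top2a, the mitotic topoisomerase, had 1102, 988, 1407, 1027 and 1615 CPM, which overlapped (0.37, adjusted p = 0.546), and the ubiquitin-conjugating gene Ube2c had 0.19 (adjusted p = 0.781).

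Of 10 genes linked to lymphocyte rest 1 was lower by edgeR (10%, against 1.51% of all genes tested). A log2 fold change above 0 was found for 3 of the 10, and their list's median was -0.15, or -0.07 without Toxf/fPdcd1Cre replicate 1. Klf2, a factor of resting and emigrating T cells that is also on the list of mature single-positive markers, had 27.9, 32.8, 12.8, 13.5 and 12.7 CPM (-1.23 ± 0.160, SE; edgeR adjusted p = 0.00301), with no overlap. Foxo1, which keeps T cells at rest, had 72.1, 87.7, 58.1, 61.3 and 58.7 CPM, without overlap (-0.43, adjusted p = 0.205). The antiproliferative genes Btg1 and Btg2 had -0.32 and -0.04 (adjusted p = 0.438 and 0.969). Toxf/f replicate 3 had the highest level of both Klf2 and Foxo1, but not of the list as a whole. The 10 genes summed to 2018, 1951, 1659, 1985 and 1865 CPM.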

How the data were processed

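Per the labels' protocols, RNA of sorted thymocytes was isolated with Trizol, and libraries came from the NEBNext Ultra kit. For each of 6 samples the authors deposited an estimated count and an FPKM value per gene, per the file headers. The submitters' processing notes name HISAT2, StringTie 1.3.1 and fastp 0.18.0. What each did, the build, the annotation and whether strand was used are not stated in these sources. Both identical Toxf/f files carry 1 column name, so the design of 3 against 3 became 2 against 3.

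The deposited counts were rounded. Genes were filtered with filterByExpr, libraries were scaled by TMM, and edgeR 4.0.16 (R 4.3.3) tested Toxf/fPdcd1Cre minus Toxf/f without covariates, with Benjamini-Hochberg adjustment over 14121 genes and a threshold of 0.05. The test was tried on simulated data. CPM use the scaled library sizes, log2 differences within an age a pseudocount of 1 CPM. Alternatives were other scalings and filters, DESeq2 1.42.0, limma 3.58.1 (limma-voom, and log2 FPKM with a pseudocount of 1), age as a covariate, a replicate block, both identical files counted, and each library left out.

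The genes and lists were chosen with earlier results of these data known. Named were all cyclins, CDK inhibitors and MCM genes and the genes past the threshold. So were the 10 largest differences in each direction with a mean of at least 1 CPM. In every other list the 2 genes with the highest FPKM and the 2 with the smallest p were named. Smc1b, Gm45928 and the marker genes Cd44, Il7r, Notch3, Ptcra, Krt14, Lyz2, Adgre1 and Mertk were named after their values were seen. Coordinates are from GENCODE M21 (GRCm38) and may differ from the build of the files. Of the 151 genes 41 overlap another listed gene and 26 have a count that is not whole, so reads may be shared.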

Additional observations from a re-analysis of the deposited data

How the results depend on the processing

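The numbers of pathway genes called were small and moved with the analysis. In parentheses stand the calls in the same direction among all genes tested. Against 2 genes lower (213 of 14121), 1 was lower with upper-quartile factors (159 of 14121) and 1 with DESeq2 (312 of 15179). With the identical files counted separately 1 was lower (325 of 13897), and 0 when 10 CPM in 3 libraries was required (63 of 9304). With limma on log2(FPKM + 1) 0 were lower (107 of 11749), as with age as a covariate (116 of 14121). Leaving out 1 Toxf/fPdcd1Cre library gave 0 to 3. Without replicate 1, 3 were lower, with Cdkn1a added (586 of 13904). Without replicate 2, 1 was lower (171 of 14007), and without replicate 3, 0 were (103 of 14060). Against 0 genes higher (19 of 14121), 2 were higher with DESeq2 (44 of 15179) and 1 (Espl1) with the identical files counted separately (55 of 13897). After 1 Toxf/fPdcd1Cre library was left out, 0 to 2 were higher, the 2 without replicate 2 (30 of 14007). The cause of these differences was not tested. With a replicate block and the shared library as number 1, 6 genes were higher (95 of 14121). They were Bub1, Ccne2, Espl1, Lig1, Mad2l1 and Pola1. With the shared library as number 2, a setting chosen after seeing the data, 1 (Espl1) was higher (99 of 14121). Whether the numbers pair the libraries is not known. The correlations of same-numbered libraries' deviations were -0.155, 0.0733 and -0.134. With 2 Toxf/f libraries the deviations of 1 mirror those of the other, so these correlations cannot decide it. The median log2 fold change ran from 0.0646 to 0.249 over the libraries left out. Of 74 named genes tested, 16 changed sign in at least 1 of 16 alternatives, none while past the threshold, and 58 did not. With 1 Toxf/f library left, that library is assumed to vary like the others. The number of Toxf/f libraries, 2, limits the precision, and for genes with few counts, such as Cdkn2a, so does depth.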
